A study of Homo sapiens with 8 samples.

Results

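The genes described here make, carry, sense or clear retinoids and aldehydes. They are ADH5, ALDH1A1, ALDH1A2, ALDH1A3, CRABP1, CRABP2, RARA, RARB and DHRS3, and they were taken by symbol from the deposited array table. All 9 genes were on the array, where 17 of its 47322 probes and 9 of its 31426 gene symbols belonged to them. RARA had 4 probes, RARB had 3, each of the ALDH1A genes had 2, and the remaining genes had 1. A gene is described below by its brightest probe, the one with the highest mean over the arrays, and its other probes are given beside it.

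Expression was measured on 8 Illumina HumanHT-12 v4 BeadArrays, in 4 groups of 2 arrays. The cells were 2 human neuroblastoma lines, SH-SY5Y with a neuroblastic and SH-EP2 with an epithelial-like phenotype, which are both subclones of the SK-N-SH line. Each line was transduced by lentivirus with a scrambled shRNA (control cells) or with an shRNA against TRPM7, a channel for magnesium and calcium fused to a kinase (TRPM7 shRNA cells). All 4 groups had therefore been through transduction and selection. The arrays used 1 TRPM7 shRNA sequence, so that its effects on other transcripts cannot be told apart from those of TRPM7. The labels give 1 medium for both lines, whereas the methods of the study give a different base medium for SH-SY5Y, and line, clone and medium cannot be told apart. The samples were prepared in duplo, and nothing says whether the replicates of a group were separate cultures, so that p-values measure the spread between these samples, which may be technical.

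Retinoic acid is made from vitamin A in 2 oxidation steps. Retinol is first turned into retinal by dehydrogenases such as RDH10, a step that DHRS3 reverses, and the ALDH1A enzymes then oxidise retinal to retinoic acid. The cellular retinoic acid-binding proteins CRABP1 and CRABP2 carry the acid inside the cell, CRABP2 towards the nucleus, where retinoic acid receptors such as RARA and RARB bind DNA together with an RXR partner. RARB is itself a classical target of these receptors, through a repeated hexamer in its promoter. ADH5 is a class III alcohol dehydrogenase, which clears formaldehyde bound to glutathione and breaks down S-nitrosoglutathione, and can also oxidise retinol weakly. Retinoic acid is known to drive differentiation of neuroblastoma cells and is used in the treatment of this tumour.

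Signals close to the background carried little information. An array's median signal was 104.7 to 119.9 and 40.8% to 44.2% of its probes were detected, which means a detection p, computed by the scanner software against its negative control beads, under 0.05. The TRPM7 probe was detected on 0 of the 8 arrays (detection p 0.0753 to 0.201), so the knockdown could not be checked with these data. The lines matched their labels by markers. Of 12 noradrenergic markers, 11 were detected on both SH-SY5Y control arrays and lower in SH-EP2 control cells, where CHGA, DBH, DDC, ELAVL4, PHOX2A and STMN2 were undetected. TH was undetected on all 8 arrays. Of 12 mesenchymal markers, 10 were higher in SH-EP2 control cells and 2 lower, and CAV1, FN1, FOSL1 and THBS1 were undetected in SH-SY5Y cells.

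Promoter windows of 5 genes are shown, for the 3 members that fell in SH-SY5Y TRPM7 shRNA cells and for the pair of retinal dehydrogenases with opposite patterns in the lines. Each window holds the 250 bases before a transcription start on the strand of the gene, from RefSeq on GRCh38.p14. Capitals in the RARB window mark a pair of hexamers in direct repeat with 5 bases between them, and capitals in the CRABP2 window mark a single hexamer. The hexamers searched were AGGTCA or AGTTCA or GGGTCA or GGTTCA, which can overlap each other, on both strands. The windows are RARB at chr3:25428013-25428262 (plus strand), CRABP2 at chr1:156705785-156706034 (minus), ADH5 at chr4:99088789-99089038 (minus), ALDH1A1 at chr9:72953054-72953303 (minus) and ALDH1A3 at chr15:100879581-100879830 (plus).
RARB: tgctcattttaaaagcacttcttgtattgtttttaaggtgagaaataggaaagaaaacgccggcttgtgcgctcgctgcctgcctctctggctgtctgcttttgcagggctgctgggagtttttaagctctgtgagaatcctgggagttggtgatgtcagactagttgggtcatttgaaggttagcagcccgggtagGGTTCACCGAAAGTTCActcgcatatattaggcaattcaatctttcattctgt
CRABP2: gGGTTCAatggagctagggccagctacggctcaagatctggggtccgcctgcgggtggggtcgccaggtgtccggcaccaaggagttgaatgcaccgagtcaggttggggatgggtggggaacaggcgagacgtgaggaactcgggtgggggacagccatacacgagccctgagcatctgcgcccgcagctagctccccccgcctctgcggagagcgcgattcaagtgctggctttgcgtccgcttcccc
ADH5: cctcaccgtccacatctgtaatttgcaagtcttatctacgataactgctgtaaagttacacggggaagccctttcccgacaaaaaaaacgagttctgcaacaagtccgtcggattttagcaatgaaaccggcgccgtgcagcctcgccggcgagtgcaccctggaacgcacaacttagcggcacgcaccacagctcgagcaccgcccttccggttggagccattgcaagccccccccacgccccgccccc
ALDH1A1: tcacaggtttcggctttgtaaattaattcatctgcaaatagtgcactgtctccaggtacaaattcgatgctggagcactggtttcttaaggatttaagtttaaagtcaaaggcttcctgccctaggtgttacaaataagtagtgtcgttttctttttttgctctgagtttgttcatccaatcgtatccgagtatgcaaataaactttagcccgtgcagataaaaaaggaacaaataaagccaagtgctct
ALDH1A3: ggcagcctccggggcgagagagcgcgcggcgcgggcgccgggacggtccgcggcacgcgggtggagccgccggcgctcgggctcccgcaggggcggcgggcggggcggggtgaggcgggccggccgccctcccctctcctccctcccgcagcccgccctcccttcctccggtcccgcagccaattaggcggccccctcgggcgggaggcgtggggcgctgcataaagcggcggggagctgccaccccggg

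A direct repeat of 2 such hexamers spaced by 5 bases lay in 1 of the 17 windows of the 9 genes, the RARB window above, where it ended 36 bases before the start. The same repeat was in 0.074% of all 35116 windows. Repeats spaced by 1 or 2 bases, which 0.0968% and 0.0313% of all windows held, were in none of the 17 windows. A single hexamer was no rarity, as 8 of the 17 windows and 33.8% of all windows held at least 1. The RARB window shown is 1 of 4 for this gene, which spans chromosome 3 from 24829321 to 25597932. A CCAAT box (CCAAT) was found in 4 of the 17 windows, among them those of ALDH1A1 and ALDH1A3, and in 32% of all windows. TATAAA was found in 0 of the 17 windows and in 10.7% of all. The 2 aldehyde dehydrogenase windows differed in composition, with 38.4% GC for ALDH1A1 and 82.4% for ALDH1A3 beside a median of 58% over all windows. The ADH5 window, at 58% GC, held none of the motifs. These matches describe the sequence only, since no binding was measured.

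In SH-SY5Y cells, 3 of the 9 genes were lower with the TRPM7 shRNA, an aldehyde-clearing enzyme, a carrier and a receptor. CRABP2, the carrier of retinoic acid to the nucleus, fell 3.75-fold, ADH5 fell 2.20-fold, and RARB, the inducible receptor, fell from a weak signal to below detection, at least 2.94-fold on the background-corrected scale. No member was higher. The other receptor, RARA, the other carrier, CRABP1, and the retinal reductase DHRS3 did not pass the test. Among the 17 probes, 3 passed an adjusted p of 0.05 (limma), against 2.12% of all probes. Those 3 were among 13 member probes detected on at least 2 arrays, and 4.13% of all probes so detected passed. By gene, 3 of 9 were lower against 1.57% of all genes, and 0 of 9 were higher against 1.01%. At an unadjusted p under 0.05, 4 were lower and 0 higher. The median change of the 9 genes was −0.31 on the log2 scale, and that of all genes was 0.00. ADH5 was picked out by the study on these same samples. The 9 genes were chosen with earlier results of these data known, so these counts are not independent evidence.

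ADH5 lies on chromosome 4 (99070978 to 99088788). Its deposited signal was 250.3 and 206 on the SH-SY5Y control arrays, and 174 and 191 on the TRPM7 shRNA arrays. In SH-EP2 cells it was 245 and 237 in control and 205 and 189 in TRPM7 shRNA cells. Within both lines the TRPM7 shRNA arrays were the lower ones, without overlap. On the normalized log2 scale, SH-SY5Y cells went from 7.00 ± 0.0060 to 5.86 ± 0.16 (SD, n = 2), a change of −1.14 (SE 0.18, adjusted p = 0.000733). The change was −0.49 when no background was subtracted, with an adjusted p of 9.7e-05. The call held without any 1 array (−1.25 to −1.03), and was lost when the spread was estimated without an intensity trend (adjusted p = 0.121) or probe by probe (0.114).

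Of the retinal dehydrogenases, only ALDH1A3 was detected on every SH-SY5Y array. Its signal was 781 and 570 in control cells and 494 and 496 in TRPM7 shRNA cells. The TRPM7 shRNA arrays lay below both control arrays. The log2 level was 9.24 ± 0.048 in control and 8.44 ± 0.12 in TRPM7 shRNA cells, and the difference of −0.79 (95% interval −1.37 to −0.22) missed the threshold with an adjusted p of 0.193. The second ALDH1A3 probe gave −0.76 (adjusted p = 0.239), also without overlap of the normalized arrays. The brightest probe passed under 4 of the 11 other settings, with adjusted p of 0.00469 with neqc, 5e-05 with normexp and an offset, 4.69e-06 without background correction and 0.000517 with SH-SY5Y fitted alone. ALDH1A1 was detected on 1 of the 4 SH-SY5Y arrays and ALDH1A2 on none of them, so no change can be read for either. DHRS3, at 136 and 121 in control and 149 and 137 in TRPM7 shRNA cells, had overlapping log2 levels and a difference of 0.06 (95% interval −0.52 to 0.63, adjusted p = 0.972).

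CRABP2 had the smallest adjusted p of the 9 genes in SH-SY5Y cells. It lies on chromosome 1 (156699606 to 156705784), and its signal was 273 and 205 in control cells and 159 and 156 in TRPM7 shRNA cells. Both TRPM7 shRNA arrays were below both control arrays. The log2 level went from 7.09 ± 0.16 to 5.19 ± 0.19, a change of −1.91 (SE 0.12, adjusted p = 1.15e-08). The size of this change rests on the background: it was −1.45 with neqc and −0.74 without any correction (adjusted p = 7.27e-07). It was lost in 1 of 11 other settings, the probe-by-probe test (adjusted p = 0.0627), and held without any 1 array (−2.04 to −1.77). Its paralogue CRABP1 was bright in the same cells, at 731 and 570 in control and 638 and 670 in TRPM7 shRNA cells. Its log2 difference was −0.22 (95% interval −0.83 to 0.40, adjusted p = 0.867), although the normalized arrays did not overlap.

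RARB was measured by 3 probes that did not agree in SH-SY5Y cells. The brightest, ILMN_1671151, read 144 and 119 on the control arrays and 111 and 108 on the TRPM7 shRNA arrays. It was detected on both control arrays and on neither TRPM7 shRNA array. The fitted change was −2.48 (SE 0.26, adjusted p = 5.27e-06), and the bound against the lowest detected signal is a level at least 2.94-fold lower in TRPM7 shRNA cells. This bound holds on the background-corrected scale only, as the log2 difference was −0.35 without correction (adjusted p = 0.00578). The second probe, ILMN_2390526, read 134 and 102 in control and 113 and 128 in TRPM7 shRNA cells, was detected on 1 array of each group, and changed by −0.49 (adjusted p = 0.805). The third, ILMN_1699723, was undetected in both groups. The mean over the probes gave −1.03 (adjusted p = 0.223), so the call belongs to 1 probe. RARA was bright, and read 885 and 638 in control and 824 and 853 in TRPM7 shRNA cells, with overlapping log2 levels and a difference of −0.05 (95% interval −0.26 to 0.16, adjusted p = 0.924). Its other 3 probes were undetected on all 8 arrays.

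**Figure D1:**
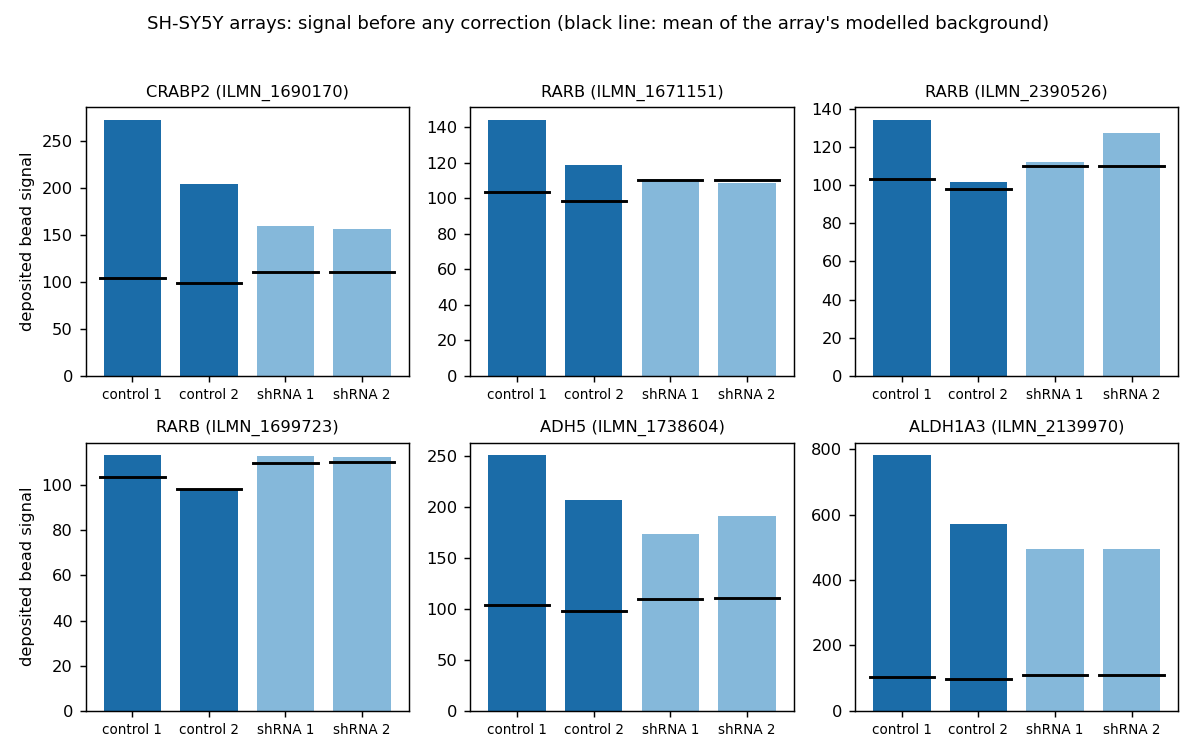
Deposited bead signal (linear, before any correction) on the 4 SH-SY5Y arrays for CRABP2, the 3 RARB probes, ADH5 and ALDH1A3. Bars are single arrays, dark for control and light for TRPM7 shRNA, and the black line is the mean of that array's modelled background. CRABP2, ADH5 and ALDH1A3 stand above the background on every array, whereas RARB probe ILMN_1671151 stands clear of it on the control arrays only, ILMN_2390526 on 1 array of each group, and ILMN_1699723 is undetected in both groups.

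The background itself moved with the groups in SH-SY5Y cells. Its modelled mean was 103.7 and 98.3 on the control arrays, and 110.0 and 110.3 on the TRPM7 shRNA arrays. Its part in the RARB result was not tested beyond the uncorrected value above. Some noradrenergic markers moved as well. Of the 12, 3 fell in SH-SY5Y TRPM7 shRNA cells (DBH by 1.20, STMN2 by 0.58 and ISL1 by 0.45 on the log2 scale), beside 1.57% of all genes. The median change of the 12 was −0.18, against 0.00 for all genes, and their median level was 10.46 in control and 10.51 in TRPM7 shRNA cells. Their summed normalized signal was 34505 and 35537 in control and 26927 and 24501 in TRPM7 shRNA cells. The 12 mesenchymal markers summed to 17454 and 16071 in control and 14584 and 14605 in TRPM7 shRNA cells, with ANXA1 higher and VIM lower. The median change of these markers was 0.01, and their median level was 5.38 in control and 5.92 in TRPM7 shRNA cells. Their part in the changes of the retinoid genes was not tested. Fewer cells of a type and less RNA per cell cannot be told apart in these bulk samples.

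In SH-EP2 cells, 2 of the 9 genes were lower with the TRPM7 shRNA and they were again ADH5 and CRABP2. ADH5 fell 1.61-fold and CRABP2 fell 1.48-fold. No member was higher, and ALDH1A1, the bright retinal dehydrogenase of this line, had a higher level that missed the threshold. Of the 17 probes, 2 passed, against 3.03% of all probes. Both were among the 13 detected on at least 2 arrays, and 5.92% of all probes so detected passed. By gene, 2 of 9 were lower against 1.86% of all genes, and 0 were higher against 1.83%. At an unadjusted p under 0.05, 2 were lower and 1 higher. The median change of the 9 genes was −0.12, and that of all genes 0.01. As in SH-SY5Y cells, these counts are not independent evidence.

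For ADH5 the log2 level went from 7.04 ± 0.077 to 6.36 ± 0.18 (SD, n = 2), a change of −0.69 (SE 0.18, adjusted p = 0.0384). CRABP2 was bright, at 3289 and 2932 in control and 2139 and 2278 in TRPM7 shRNA cells, with no overlap. Its log2 level went from 11.57 ± 0.033 to 11.00 ± 0.048, a change of −0.56 (SE 0.12, adjusted p = 0.011). As the signal was far above background, the change of CRABP2 was also −0.54 without background correction. Both calls were close to the threshold and both were lost when any 1 of the 4 SH-EP2 arrays was left out. The adjusted p was then 0.0849 to 0.355 for ADH5, with changes of −0.82 to −0.56, and 0.0869 to 0.155 for CRABP2, with changes of −0.60 to −0.53. Median scaling in place of quantile normalization also ended both calls (adjusted p = 0.0802 and 0.0527).

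ALDH1A1 read 601 and 548 in SH-EP2 control and 767 and 743 in TRPM7 shRNA cells. The TRPM7 shRNA arrays were the higher ones without overlap. The log2 level was 8.86 ± 0.0039 in control and 9.31 ± 0.044 in TRPM7 shRNA cells, a difference of 0.45 (95% interval 0.02 to 0.88, adjusted p = 0.36). The second probe gave 0.28 (adjusted p = 0.783). Under 3 of 11 other settings the brightest probe passed, with adjusted p of 0.00822 with normexp and an offset, 0.00196 without background correction and 0.00194 with SH-EP2 fitted alone. RARB was detected by all 3 of its probes in SH-EP2 cells, the brightest at 346 and 290 in control and 281 and 282 in TRPM7 shRNA cells. The RARB differences were −0.32 (95% interval −0.86 to 0.21, adjusted p = 0.699), 0.00 and −0.21, and none passed. RARA differed by 0.16 (95% interval −0.05 to 0.38, adjusted p = 0.575) and DHRS3 by −0.02 (−0.60 to 0.55, adjusted p = 0.988). ALDH1A3 and CRABP1 were undetected on every SH-EP2 array, and ALDH1A2 was detected on 1 array of each SH-EP2 group.

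**Figure D2:**
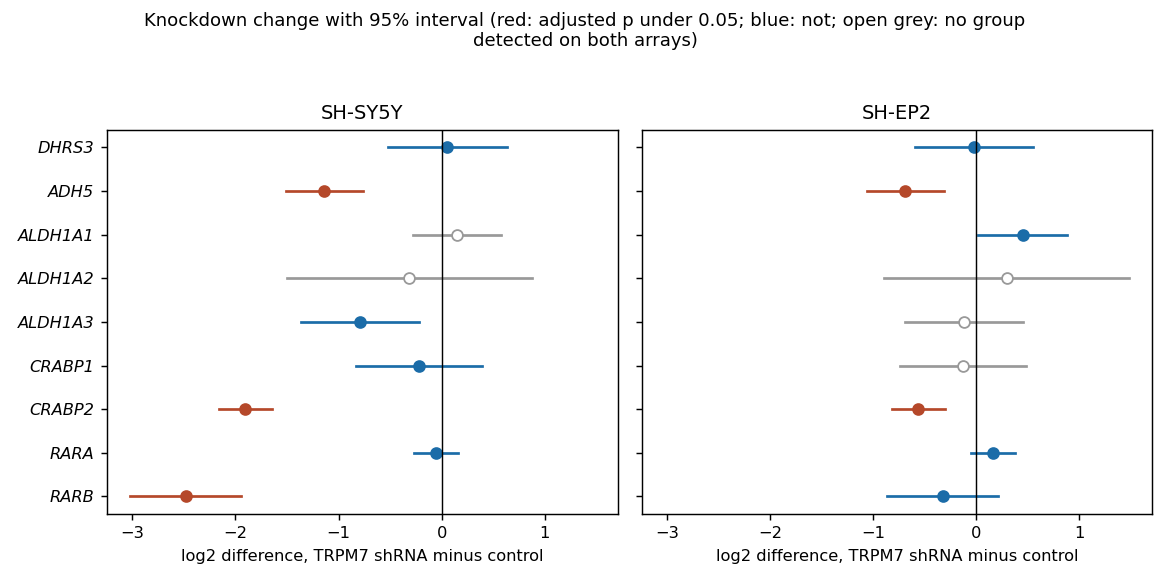
Difference between TRPM7 shRNA and control cells on the log2 scale for the brightest probe of each gene, in SH-SY5Y (left) and SH-EP2 cells (right). Points are the fitted difference of 2 against 2 arrays and lines its 95% interval, red where the adjusted p is under 0.05, and open grey where no group was detected on both arrays. ADH5 and CRABP2 lie below 0 in both lines, and RARB does so in SH-SY5Y cells, where its fitted −2.48 is no measured size.

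The difference between the changes of both lines was tested as an interaction, SH-EP2 change minus SH-SY5Y change. It passed for 2 of the 17 probes, CRABP2 and the brightest RARB probe, against 1.42% of all probes. Of all probes detected on at least 2 arrays, to which 13 of the 17 belong, 2.78% passed. The change of CRABP2 was smaller in SH-EP2 cells by 1.34 (95% interval 0.98 to 1.70, adjusted p = 0.000124). For RARB the fitted interaction was 2.16 (95% interval 1.40 to 2.92, adjusted p = 0.0021), although 1 of its 4 group levels was undetected. Both depended on the background correction. Without one, the interaction was 0.20 for CRABP2 (adjusted p = 0.563) and 0.15 for RARB (adjusted p = 0.68). CRABP2 in SH-SY5Y TRPM7 shRNA cells stood at 159 and 156 over a modelled background of 110.0 and 110.3, while SH-EP2 cells were at 2139 and above. For ADH5 the interaction was 0.45 (95% interval −0.08 to 0.98, adjusted p = 0.583), so a difference between the lines was not shown.

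Other genes of retinoid and aldehyde metabolism were followed through 7 lists, which were also chosen with earlier results of these data known. In SH-SY5Y cells, called genes were in 2 of them, and the counts stand beside 1.57% lower and 1.01% higher of all genes. The median change of a list was −0.10 to 0.15, against 0.00 for all genes. Among 18 retinoic acid-induced genes, 2 fell and 0 rose: NAV2, a neuron navigator induced by retinoic acid (−2.05, SE 0.12, adjusted p = 2.89e-09), and ZNF423, a zinc-finger cofactor of retinoic acid receptors (−1.64, adjusted p = 0.000574). At an unadjusted p under 0.05, 3 were lower and 0 higher. NAV2 was −2.65 and −2.01 on a pair of further probes that both passed, while its remaining probe was undetected in both groups. A second ZNF423 probe gave −2.10 (adjusted p = 0.0138). The ZNF423 call was lost without an intensity trend (adjusted p = 0.0777). Probe by probe, the calls of both NAV2 (adjusted p = 0.0523) and ZNF423 (0.112) were lost. The median change of the 18 genes was −0.04. Among 15 genes for clearance of formaldehyde and other reactive aldehydes, the aldo-keto reductase AKR1C3 fell by 0.86 (adjusted p = 0.000714) and GLO1, which detoxifies methylglyoxal, rose by 0.30 (adjusted p = 0.034). Both calls were lost without an intensity trend (adjusted p = 0.233 and 0.612) and probe by probe (0.201 and 0.241). The GLO1 call was lost without any 1 of the 8 arrays (adjusted p 0.0561 to 0.224).

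In the other 5 lists, limma called 0 genes in SH-SY5Y cells, beside the same 1.57% lower and 1.01% higher of all genes. Over the whole array, 5386 of 47322 probes had an unadjusted p under 0.05 in this comparison. Of 15 genes for retinoid uptake, storage and carriers, 1 was higher and 1 lower at an unadjusted p under 0.05. Of 21 retinol and retinal dehydrogenases and reductases this was 1 higher, of 6 genes for other retinoic acid synthesis and breakdown 1 lower, of 11 other receptors and cofactors 1 lower, and of 15 other aldehyde dehydrogenases 3 higher and 1 lower.

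In SH-EP2 cells, where 1.83% of all genes were higher and 1.86% lower, the called genes of the lists included 2 retinol dehydrogenases, which moved in opposite directions. The median change of a list was −0.32 to 0.15, against 0.01 for all genes. RDH10, the main retinol dehydrogenase of retinoic acid synthesis, fell by 1.52 on the log2 scale (8.95 ± 0.11 to 7.44 ± 0.058, adjusted p = 0.000115), and the call held without any 1 array. DHRS9, another retinol dehydrogenase, rose by 2.27 (adjusted p = 0.00941) from a level detected on 1 of 2 control arrays. The size of the DHRS9 change depended on the processing. It was as small as 0.39 in other settings, and 0.55 with the probes of the gene averaged (adjusted p = 0.546). Its call was lost without control replicate 1 (adjusted p = 0.145) or either TRPM7 shRNA array (0.0596 and 0.0736), and its other 3 probes were not detected on both arrays of any group in this line. CBR4, a carbonyl reductase, rose by 0.64 (adjusted p = 0.0202), so that 2 of 21 genes of that list rose and 1 fell.

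Among 15 other aldehyde dehydrogenases 2 rose and 1 fell in SH-EP2 cells. This and the following counts stand beside 1.83% higher and 1.86% lower of all genes. Over the whole array, 5940 of 47322 probes had an unadjusted p under 0.05 in this comparison. Mitochondrial ALDH1B1 fell by 0.77 (adjusted p = 0.00059), whereas ALDH6A1, of valine breakdown, rose by 0.70 (adjusted p = 0.0297) and ALDH7A1, of lysine breakdown, rose by 0.42 (adjusted p = 0.00966). The second probe of each of these had the same direction and did not pass (−0.49, 0.33 and 0.36). RAI14 fell by 0.66 (adjusted p = 0.00153) as 1 of 18 retinoic acid-induced genes. AKR1B1, aldose reductase, rose by 0.34 (adjusted p = 0.0193) as 1 of 15 genes for aldehyde clearance. Limma called 0 of 15 genes for uptake and carriers, with 1 higher and 0 lower at an unadjusted p under 0.05. It called 0 of 6 genes for other synthesis and breakdown, with 0 at an unadjusted p under 0.05, and 0 of 11 other receptors and cofactors, with 2 higher and 1 lower unadjusted. Apart from RDH10 and ALDH1B1, each of the calls named here for SH-EP2 cells was lost without at least 1 array: ALDH7A1 and CBR4 without any 1 of the 4 SH-EP2 arrays (adjusted p 0.0647 to 0.147 and 0.0517 to 0.268), ALDH6A1 without control replicate 1 (0.309) or either TRPM7 shRNA array (0.129 and 0.191), AKR1B1 without control replicate 1 (0.263) or TRPM7 shRNA replicate 2 (0.281), and RAI14 without control replicate 2 (0.0604) or TRPM7 shRNA replicate 1 (0.0538). The calls of RDH10 and ALDH1B1 were lost without an intensity trend (adjusted p = 0.0772 and 0.166) and probe by probe (0.129 and 0.0891). That of ALDH1B1 was also lost with its probes averaged (adjusted p = 0.0914). In SH-EP2 cells 1 of 12 noradrenergic markers was higher and 2 were lower, with sums of 359 and 371 in control and 413 and 352 in TRPM7 shRNA cells. Of 12 mesenchymal markers 1 was higher and 2 were lower, with sums of 39379 and 42408 in control and 44351 and 42376 in TRPM7 shRNA cells.

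The largest differences among these genes were between the lines, and both lines were compared in their control cells, which the knockdown comparisons share. SH-EP2 control cells had ALDH1A1, CRABP2, RARB and DHRS3 higher than SH-SY5Y control cells, and ALDH1A3, CRABP1 and RARA lower. ADH5 and ALDH1A2 did not pass. Of the 17 probes, 11 passed, against 26.2% of all probes. By gene, 4 of 9 were higher against 14.2% of all genes and 3 of 9 lower against 15.9%. The 11 were among the 13 member probes detected on at least 2 arrays, against 50.3% of all probes so detected. A probe detected in only 1 line meets that filter through the line where it is high, so these shares are a description.

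**Figure D3:**
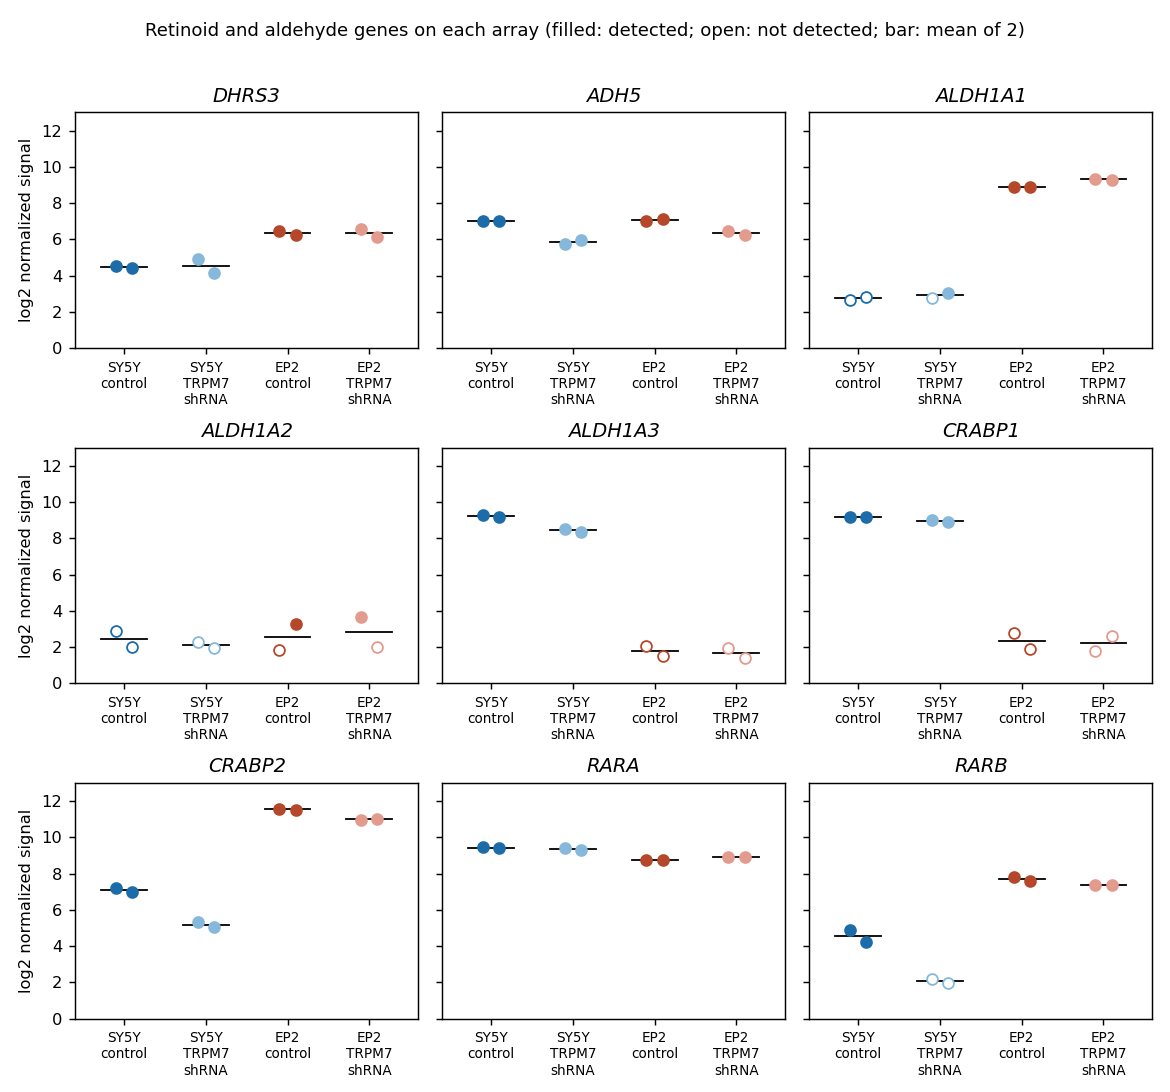
Normalized log2 signal of the brightest probe of each gene on the 8 arrays, by group. Each point is 1 array, filled where the probe was detected and open where it was not, and the bar is the mean of 2 arrays. ALDH1A1 is detected on all SH-EP2 arrays, ALDH1A3 and CRABP1 on all SH-SY5Y arrays and no SH-EP2 array, and CRABP2 and RARB are higher in SH-EP2 cells.

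The retinal dehydrogenases had opposite patterns. ALDH1A1 read 601 and 548 in SH-EP2 control cells and 111 and 106 in SH-SY5Y control cells, where it was undetected. Its level was at least 52.4-fold higher in SH-EP2 cells by the brightest probe (adjusted p = 3.8e-15) and at least 23.2-fold by the other. ALDH1A3 went the opposite way, with 110.4 and 99.2 in SH-EP2 and 781 and 570 in SH-SY5Y cells, at least 64.5-fold lower in SH-EP2 cells (adjusted p = 1.56e-14), and at least 27.2-fold by its second probe. ALDH1A2 was detected on 1 SH-EP2 control array and on no SH-SY5Y control array. These bounds are on the background-corrected scale: uncorrected, the log2 differences were 2.33 for ALDH1A1 and −2.79 for ALDH1A3. DHRS3 read 204 and 181 in SH-EP2 and 136 and 121 in SH-SY5Y cells, a log2 difference of 1.87 (SE 0.27, adjusted p = 1.52e-05), or 0.53 uncorrected.

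The carriers were likewise split by line. CRABP1 was undetected in SH-EP2 cells, at 119 and 105 against 731 and 570, and was at least 62.1-fold lower there (adjusted p = 1.82e-13). CRABP2 was detected in both lines and 22.2-fold higher in SH-EP2 cells (log2 difference 4.47, SE 0.12, adjusted p = 1.51e-16). The uncorrected differences were −2.65 and 3.65. Of the receptors, RARB was higher in SH-EP2 cells by 3.13 (SE 0.26, adjusted p = 5.01e-09), and its other probes gave 2.86 and a level at least 4.06-fold higher. Uncorrected, the RARB difference was 1.23. RARA was lower in SH-EP2 cells, with a log2 difference of −0.69 (SE 0.10, adjusted p = 1.7e-05), with 559 and 517 against 885 and 638. ADH5, detected on every array, did not pass the test between the lines, with a difference of 0.05 (95% interval −0.33 to 0.42, adjusted p = 0.906).

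Over the 4 groups, the order of ADH5 was SH-EP2 control (7.04) and SH-SY5Y control (7.00), whose arrays overlapped, then SH-EP2 TRPM7 shRNA (6.36) and SH-SY5Y TRPM7 shRNA (5.86). CRABP2 ran from SH-EP2 control (11.57) through SH-EP2 TRPM7 shRNA (11.00) and SH-SY5Y control (7.09) to SH-SY5Y TRPM7 shRNA (5.19), with no overlap between neighbours. RARB followed the same order, from 7.71 and 7.38 in SH-EP2 cells, which did not pass the test, to 4.58 in SH-SY5Y control cells and no detection in SH-SY5Y TRPM7 shRNA cells. The genes whose pattern over the 8 arrays was most like that of ADH5, among 15082 genes detected on at least 4 arrays, were NAPA (Pearson r = 0.981) and FBXO34 (r = 0.980). For the other members the arrays formed a cluster per line, so no r is given. Their nearest genes were BAG3 and ACP5 for ALDH1A1, GCH1 and PHOX2A for ALDH1A3, LOC649970 and MT1F for CRABP1, ENG and LAYN for CRABP2, CTSS and FOSL1 for DHRS3, UBE2G2 and LOC729423 for RARA, and ABCC3 and UBA7 for RARB.

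Between the control lines, the counts of the pathway lists stand beside 14.2% of all genes higher and 15.9% lower, and those of several lists lie near these shares, so they are no result about the lists. The median difference of a list was −0.37 to 0.83, against −0.02 for all genes. Of 15 genes for uptake and carriers, 3 were higher and 2 lower in SH-EP2 cells, with the retinol transporter STRA6 at least 19.4-fold lower. Of 21 retinol and retinal enzymes, 4 were higher and 3 lower, with RDH10 higher by 4.40 on the log2 scale. Of 6 genes for other synthesis and breakdown, 2 were higher and 1 lower, and CYP26B1, which inactivates retinoic acid, was at least 89.6-fold higher in SH-EP2 cells. Of 11 other receptors and cofactors, 4 were higher and 0 lower (0 also at an unadjusted p under 0.05). Of 18 retinoic acid-induced genes, 5 were higher, among them RARRES3 (at least 98.7-fold) and TGM2 (5.29 on the log2 scale), and 8 lower, among them ZNF423 (at least 84.4-fold). By its other probe, ZNF423 was at least 7.68-fold lower. Of 15 other aldehyde dehydrogenases, 5 were higher and 2 lower, with ALDH3B1 higher by 4.12 while detected on 1 of 2 SH-SY5Y control arrays. The other ALDH3B1 probe was undetected in both lines (difference −0.14, adjusted p = 0.847). Of 15 genes for aldehyde clearance, 6 were higher and 3 lower. The bounds and differences in this paragraph are on the background-corrected scale. In other processing settings the log2 difference was as small as 2.99 for CYP26B1, −1.50 for STRA6, 1.24 for ALDH3B1 and 2.16 for RDH10. Each of these still passed in every setting. For RARRES3, TGM2 and ZNF423, the difference between the lines was not followed through other settings. The genes named in this paragraph, other than RDH10 and ZNF423, were chosen after their values were seen.

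**Figure D4:**
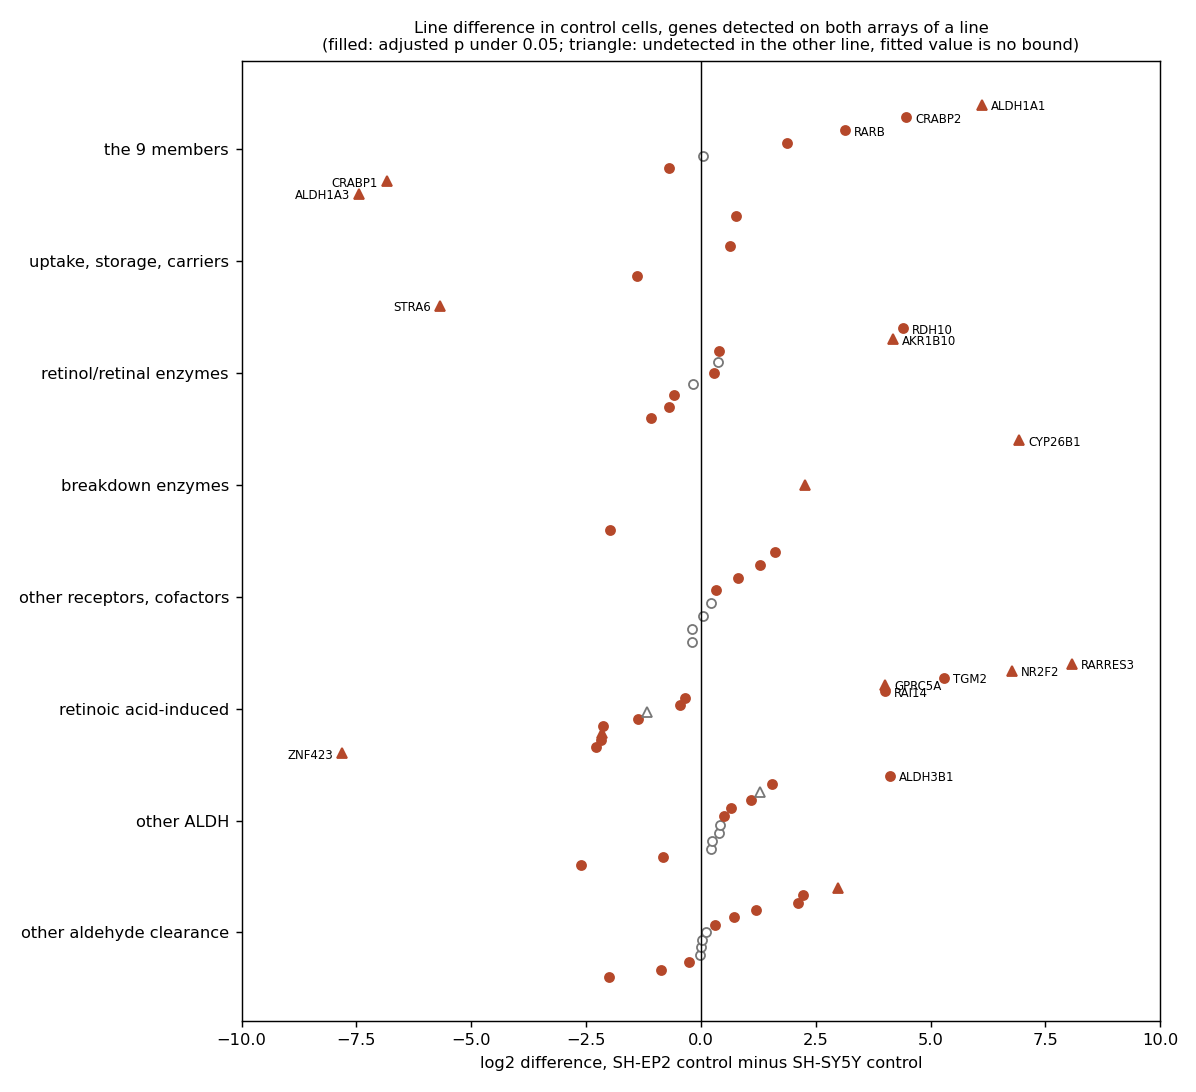
Log2 difference between SH-EP2 and SH-SY5Y control cells for the 9 genes and the 7 pathway lists, for genes detected on both arrays of at least 1 line. Each point is a gene, filled where the adjusted p is under 0.05, and a triangle where the gene was undetected in the other line, so that its place is the fitted value and not a measured size. ALDH1A1, CRABP2 and CYP26B1 lie to the right, and ALDH1A3, CRABP1 and ZNF423 to the left.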

How the data were processed

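The arrays measured bulk RNA of SH-SY5Y and SH-EP2 cells, grouped by the line and shRNA in the labels. The authors extracted bead intensities and detection p-values with GenomeStudio 2011.1, and deposited the intensities on a linear scale, not normalized, with 1 signal and 1 detection p-value for each of 47322 probes per array. No symbol was given for 3270 probes. The study states Robust-Multi-Array normalization and names no test. Here the RMA background model was coded anew, followed by quantile normalization over 8 arrays and log2, without a filter. Signals just above the background are stretched by this step, so that fold changes of dim probes depend on it. One model over the 4 groups was fitted in R 4.3.3 (limma 3.58.1 and statmod 1.5.0), using eBayes with an intensity trend. Tests were two-sided, and p-values were adjusted across the whole array by Benjamini-Hochberg, at a threshold of 0.05. The model fit was tested on simulated log2 values with normal noise. The background correction and normalization were not part of that test.

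A group with no array at a detection p under 0.05 has only a bound. Its fold is then given as at least the ratio of the brighter group's mean to a floor, which on each array is the lowest detected signal, or the probe's own where that is higher. The number of arrays limits the precision. Beside the members, genes of a pathway list were named when their brightest probe was detected on both arrays of the brighter group and passed in a knockdown comparison, at most 4 per list and comparison, along with TRPM7 and the 2 nearest genes of each member detected on at least 4 arrays. Members and lists were chosen with earlier results of these data known. A few genes of the lists are not reported here and were left out of the list counts. Alternatives were neqc (offset 16), normexp with an offset of 50, no background correction, median scaling, a filter on detection, other estimates of the spread, each line alone, a replicate block, averaging a gene's probes, and omitting arrays in turn. Promoter windows and gene positions are from RefSeq (GRCh38.p14), and all 9 genes were matched by symbol. The position of the array probes within the genes was not used here, so that probes are named by their IDs.

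Replicates of a group correlated with r = 0.982 to 0.985.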

Additional observations from a re-analysis of the deposited data

Results flagged for a closer look

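Among the 9 genes and the genes named from the pathway lists, the knockdown changes of 5 that were detected on both arrays of a group in each line differed between the lines by the limma interaction, given as SH-EP2 change minus SH-SY5Y change on the log2 scale. They were CRABP2 at 1.34, the brightest RARB probe at 2.16, NAV2 at 2.44, ALDH1B1 at −1.17 and RDH10 at −1.52. CRABP2 fell in both lines and further in SH-SY5Y cells, and the difference was 0.20 without background correction. The RARB interaction was 0.15 without that correction (adjusted p = 0.68). NAV2 fell in SH-SY5Y cells (−2.05), was at 0.39 in SH-EP2 cells (adjusted p = 0.0841), and had interactions of 2.89 and 2.49 on its further detected probes. RDH10 fell in SH-EP2 cells and was at 0.00 in SH-SY5Y cells (adjusted p = 0.999). ALDH1B1 fell in SH-EP2 cells and was at 0.39 in SH-SY5Y cells (adjusted p = 0.127). All 5 interactions were lost with the probe-by-probe test, and also without an intensity trend. Without the trend the adjusted p was 0.198 for CRABP2, 0.151 for RARB, 0.0537 for NAV2, 0.21 for ALDH1B1 and 0.243 for RDH10. The RDH10 interaction was lost without SH-EP2 control replicate 2 (adjusted p = 0.0761). ZNF423 also passed (1.64, adjusted p = 0.0196), but it was undetected on every SH-EP2 array, so that no change could be read in that line and it is not counted among the 5. Groups of 2 arrays were too small for a test of single outlying samples.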

How the results depend on the processing

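Of the 17 probes, 3 passed in SH-SY5Y cells. This was 5 with neqc, with normexp and an offset of 50, without background correction and with each line fitted alone, and 0 with the probe-by-probe test. In SH-EP2 cells it was 2, and 0 with median scaling, without an intensity trend and probe by probe, 1 with the replicate block, which ended the call of ADH5 (adjusted p = 0.074), and 0 to 2 when 1 array was left out. The SH-EP2 count was 3 with normexp and an offset of 50, without background correction and with each line fitted alone. The interaction passed for 2, and for 1 with neqc and with a gene's probes averaged, 0 without a trend and 0 probe by probe. Between the lines it was 11, and 6 of 9 genes with probes averaged, where the RARA difference became −0.00. Differences close to 0 changed sign: with median scaling ADH5 between the lines (−0.020) and RARA in SH-SY5Y cells (0.088), and with probes averaged RARA in SH-SY5Y (0.0051), in SH-EP2 (−0.11) and in the interaction (−0.12). Without 1 array they ran from −0.0070 to 0.10 for ADH5 between the lines, −0.12 to 0.015 for RARA in SH-SY5Y, and for DHRS3 −0.33 to 0.44 in SH-SY5Y, −0.24 to 0.20 in SH-EP2 and −0.46 to 0.30 in the interaction. Whether the replicate numbers pair the samples is not stated. The replicate differences of control and TRPM7 shRNA cells showed no positive correlation. It was −0.0044 (SH-EP2) and −0.11 (SH-SY5Y) over 14577 probes detected on all arrays. The replicate block changed no other call of a member. Over all probes, the block left 806 calls in SH-SY5Y cells, 1142 in SH-EP2 cells and 500 in the interaction. A block with crossed SH-SY5Y numbers, added after seeing the data, left the counts of the 17 probes at 3, 2, 2 and 11.

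Over all probes, 1003 passed in SH-SY5Y cells (64 without a trend, 50 probe by probe, 566 of the averaged genes, 621 to 959 without 1 array). In SH-EP2 cells it was 1433 (102, 103, 853, 672 to 1599, and 2589 with this line alone), and in the interaction 670 (23, 15, 372, 400 to 652, and 1153 with normexp and 1246 without background correction). Median scaling moved the median change of detected genes in SH-SY5Y cells from 0.01 to 0.14, the higher share of calls there from 38.5% to 66.1%, and that of the interaction from 56.4% to 37.1%. ADH5, CRABP2 and RARB stayed lower in SH-SY5Y cells under it. Probes near the background limit what could be measured.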
